A study of Homo sapiens with 6 samples.

Results

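Interferon-stimulated genes are the genes that a cell switches on when an interferon binds its receptor, and 43 of them were followed here among 58735 genes with deposited values. They are known members of the class, listed by name with earlier results of these data in view, and each was found under its GENCODE 29 name. All libraries were labelled NCI-N87, an established human gastric carcinoma line in which the ERBB2 gene is known to be amplified. Total RNA was sequenced in 6 libraries, 2 of wild-type cells (WT), 2 of the KRT17 knockout group KO1 and 2 of the KRT17 knockout group KO2. No library was labelled as treated with interferon. The labels do not say whether KO1 and KO2 are separate guides or separate clones, nor whether the replicates were separate cultures, so p-values measure only how far these libraries spread, and that spread may be technical.

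In textbook outline, type I and type III interferons act through paired receptors and the kinases JAK1 and TYK2. STAT2 is then phosphorylated, joins IRF9 in the complex ISGF3, and this complex binds a short DNA word, the interferon-stimulated response element (ISRE), in the promoters of these genes. Many of the products bind viral RNA, block entry or translation, or dampen the pathway itself, and carcinoma lines can express them without added interferon.

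The libraries held 17599759 to 22852340 recovered reads. KRT17, the targeted gene, was at 739 and 753 FPKM (fragments normalised to exon length and sequencing depth) in WT, 2.29 and 2.40 in KO1, and 11.3 and 10.4 in KO2. In markers of the line, too, the knockout libraries differed from WT. The summed level of 9 epithelial and NCI-N87 markers was 5171 to 5345 FPKM in WT, 409.8 to 421 in KO1 and 348 to 350.1 in KO2, with 9 of 9 lower in both groups. KRT19 had 161100 reads in WT, 10 in KO1 and 0 in KO2, and CDX2 had 4098, 0 and 1. ERBB2 was at 1355 and 1420 FPKM in WT and 5.27 to 6.07 in the 4 knockout libraries. Expression alone could not show whether the knockout libraries derive from NCI-N87, so the line is given for them as labelled. The sum of 10 fibroblast and mesenchymal markers was 1.20 to 1.59 FPKM in WT and 113 to 128 in the knockout libraries, where 7 of 7 tested markers were higher, while COL1A2 had at most 8 reads and THY1 at most 6 in any group. Every WT library had the epithelial markers and no knockout library had KRT19 or CDX2 above trace, so for each result against WT the KRT17 label and this change of markers cannot be told apart. Over 10 genes, leukocyte markers summed to 1.59 and 1.60 FPKM in WT, 1.73 in both KO1 libraries, and 3.42 and 3.13 in KO2. CD3D and MS4A1 had 0 reads in all 6 libraries and PTPRC 6 reads or fewer per group. The 2 leukocyte markers that were tested were called higher in KO1 and in KO2 than in WT (medians of 0.72 and 1.18 log2). Both were also higher in KO2 than in KO1. Among 5 plasmacytoid dendritic markers, the cells known as strong interferon producers, LILRA4 had 0 reads and CLEC4C 1 read in all. Of these 5, IL3RA made up most of a sum of 1.80 to 4.13 FPKM, highest in KO2.

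The ISRE, the DNA word that ISGF3 is known to bind, was looked up in the promoters first. RefSeq windows (GRCh38.p14, 250 bases before to 50 after a gene's start, 300 bases in all) were found for 34 of the 43 genes. IRF7, DHX58, OAS2, OASL, IFIT2, IFITM2, MX2, USP18 and TRIM22 were not matched. The ISRE was searched on both strands as the letters GAAA, any 2 bases, and GAAA again. It occurred in 24 of the 34 genes (70.6%), against 4.38% of the 27305 genes with a window. By window rather than by gene, 63% of the members' windows and 3.57% of all 35116 windows held it. The gamma-activated site, the word known from the response to interferon gamma, was searched as TTCNNNGAA, which reads the same on both strands, and was in 26.1% of the members' windows and 7.66% of all windows. The windows of STAT2, IRF9, DDX58, ZC3HAV1, OAS1, HERC6, CMPK2, SAMD9L, XAF1 and SP110 held no ISRE word.

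The windows of BST2, ISG15 and IFI6 are shown because these had the highest WT levels among members with the word. That of ZC3HAV1 is shown because this gene was the highest above WT in a knockout group among members with a window. It holds no ISRE word, which played no part in the choice. IFITM2 rose more but had no window. Each is written 5′ to 3′ on the strand of its gene, and capitals mark the bases of an ISRE word. BST2 lies at chr19:17405581-17405880 (minus strand), ISG15 at chr1:1013247-1013546 (plus), IFI6 at chr1:27672143-27672442 (minus) and ZC3HAV1 at chr7:139109671-139109970 (minus).
BST2: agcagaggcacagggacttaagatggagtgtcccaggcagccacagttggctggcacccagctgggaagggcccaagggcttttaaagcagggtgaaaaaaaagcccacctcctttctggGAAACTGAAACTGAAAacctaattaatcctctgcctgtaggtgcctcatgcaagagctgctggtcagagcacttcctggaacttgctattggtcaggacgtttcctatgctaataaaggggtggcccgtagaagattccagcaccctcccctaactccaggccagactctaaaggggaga
ISG15: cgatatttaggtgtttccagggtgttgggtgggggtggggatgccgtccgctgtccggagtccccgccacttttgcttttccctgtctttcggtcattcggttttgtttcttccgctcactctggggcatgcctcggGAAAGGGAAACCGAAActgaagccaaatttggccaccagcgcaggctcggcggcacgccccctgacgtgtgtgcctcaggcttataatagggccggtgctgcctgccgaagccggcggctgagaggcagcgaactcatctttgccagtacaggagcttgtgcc
IFI6: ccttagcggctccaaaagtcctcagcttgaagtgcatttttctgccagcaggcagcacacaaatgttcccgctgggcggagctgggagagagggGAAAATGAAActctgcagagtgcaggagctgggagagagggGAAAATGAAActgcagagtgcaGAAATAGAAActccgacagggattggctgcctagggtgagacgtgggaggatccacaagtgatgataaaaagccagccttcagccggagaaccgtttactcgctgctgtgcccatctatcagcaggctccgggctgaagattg
ZC3HAV1: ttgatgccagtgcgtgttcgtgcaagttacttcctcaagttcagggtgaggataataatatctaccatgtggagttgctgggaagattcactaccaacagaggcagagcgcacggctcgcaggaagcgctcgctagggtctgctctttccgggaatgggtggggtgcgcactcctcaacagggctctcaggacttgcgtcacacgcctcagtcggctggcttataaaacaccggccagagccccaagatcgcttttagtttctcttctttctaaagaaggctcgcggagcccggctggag
In BST2 and in ISG15, 2 words overlap, at positions -130 to -115 in BST2 and -113 to -98 in ISG15, where the start site is 0. IFI6 holds 3 separate words between -156 and -84. A match of these letters is a description of the window and not a measured binding site.

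Shorter stretches show the same word in members that behaved differently below. They run on the strand that holds the word, with 8 bases on each side and the word in capitals. IFIT1 (chr10:89392499-89392524) and IFIT3 (chr10:89327867-89327892) belong to a family with large differences between KO1 and KO2. IFITM1 (chr11:314026-314051) fell and its neighbour IFITM3 (chr11:320878-320903) kept most of its level. IFI27 (chr14:94110620-94110645) and MX1 (chr21:41420561-41420586) fell to traces. The windows of PARP9 and DTX3L share 1 word, which lies across the start site of DTX3L and upstream of that of PARP9 (chr3:122564324-122564349).
IFIT1: cgaaagggGAAAGTGAAActaaagct
IFIT3: ggaaactgGAAAGTGAAActaattta
IFITM1: acttctgaGAAACTGAAAcgacaggg
IFITM3: actgttgaGAAACCGAAActactggg
IFI27: ttttccagGAAACCGAAActgcagac
MX1: gcagaaatGAAACCGAAActgaattg
PARP9 and DTX3L: agggaagcGAAACTGAAActttgcgc
The word was in 3 of the 5 genes with a window that were under 5% of WT in both knockout groups, in 5 of the 8 that kept 50% or more in both, and in 16 of the 21 between.

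The members were expressed at high levels in WT and were mostly lower in both knockout groups. Their summed level was 2102 and 2143 FPKM in the WT libraries, 1033 and 1021 in KO1, and 842 and 827 in KO2. Their median level was 14.4 FPKM for WT, 5.21 for KO1 and 3.05 for KO2, and 29, 13 and 8 members reached 10 FPKM. A few genes carried most of the sum: BST2, ISG15, IFI6, LGALS3BP and IFITM3 made up 65.9% of it in WT. In KO2 the leading 5 were BST2, LGALS3BP, IFITM3, IFITM2 and IFI6, with 80.2%. In bulk RNA, fewer expressing cells and less RNA per cell cannot be told apart. How the authors' counting treated strand is not stated, and 16 of the 43 genes share exon bases with another GENCODE 29 gene. The share was over 20% for 6 of them: IRF9, IFITM1, IFITM2, IFITM3, XAF1 and SP110.

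**Figure D1:**
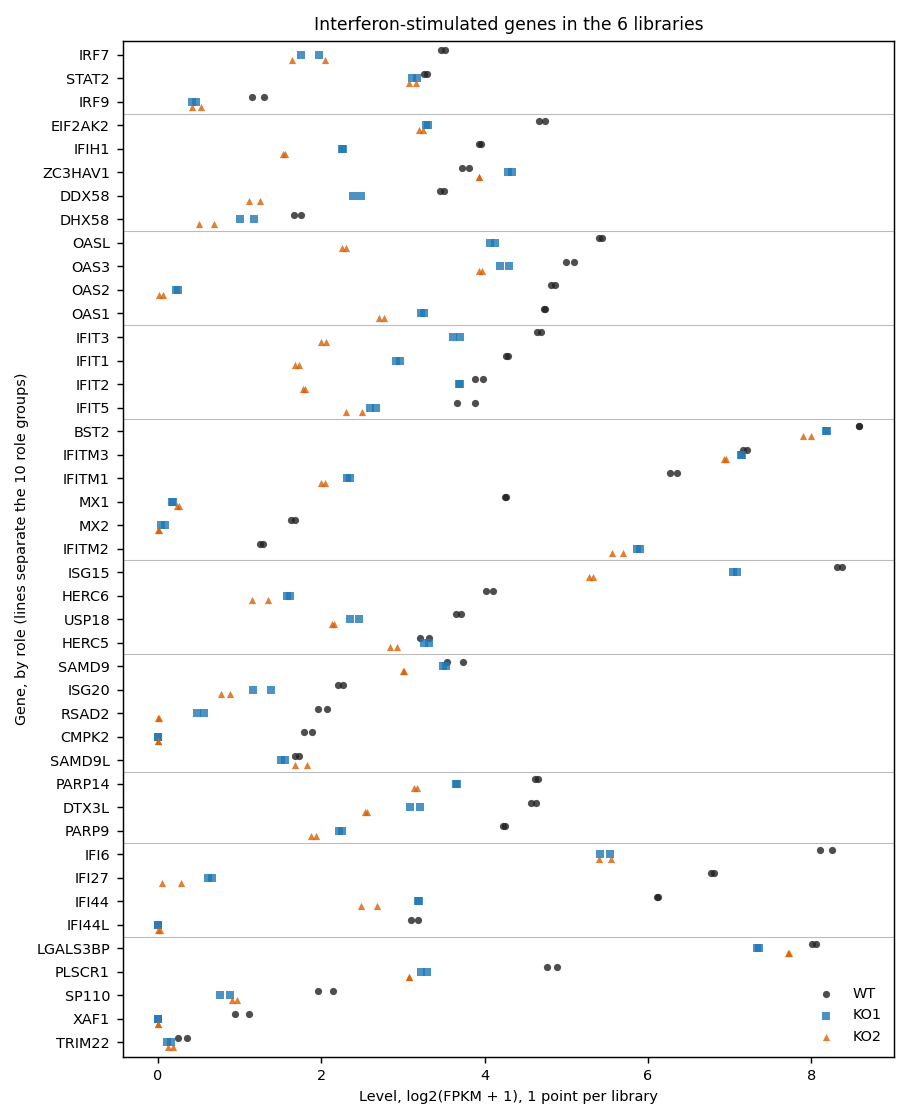
Level of each of the 43 genes in each of the 6 libraries, on the log2(FPKM + 1) scale, with rows grouped by role. WT points lie to the right of both knockout groups for most genes, while IFITM2 lies far to the left in WT and CMPK2 and XAF1 sit at 0 in the 4 knockout libraries.

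Of the 43 genes, 41 passed the low-value filter (1 FPKM in at least 2 libraries) and were tested. XAF1 and TRIM22 did not pass, and 9 of the 41 passed only through the WT libraries (IRF9, OAS2, MX1, MX2, RSAD2, CMPK2, IFI27, IFI44L and SP110), so these had to be lower in the knockout groups. By limma on log2(FPKM + 1) with Benjamini-Hochberg adjustment over 16046 genes, 34 of the 41 were lower in KO1 than in WT, 2 were higher and 5 were not called, where 77.8% of all tested genes were called in 1 direction or the other. The background was wide: 38.6% of all tested genes were called lower in KO1 and 39.3% higher. In KO2, 38 of 41 were lower, 2 higher and 1 not called, against 39.8% lower, 39.1% higher and 78.9% either way over all genes. The median difference of the tested members was -1.28 log2 in KO1 and -1.74 in KO2, against 0.02 and 0.01 over all tested genes, and setting genes with 0 reads to their bound left both medians as they were. A difference of more than 1 log2 downward was seen for 26 members in KO1 (63.4%) and 31 in KO2 (75.6%), against 14.5% and 15.2% of all genes. The values of WT and knockout libraries did not overlap for 40 members in either comparison, against 89% and 88.5% of all genes. Both comparisons use the same WT libraries. A count only over genes at 1 FPKM or more in all 4 libraries compared was added after the data were seen. There, 25 of 32 members were lower in KO1 and 27 of 30 in KO2, with 41.5% and 43% of all such genes lower. The medians of these members were -1.09 log2 in KO1 and -1.69 in KO2, against -0.04 and -0.06 over all such genes.

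**Figure D2:**
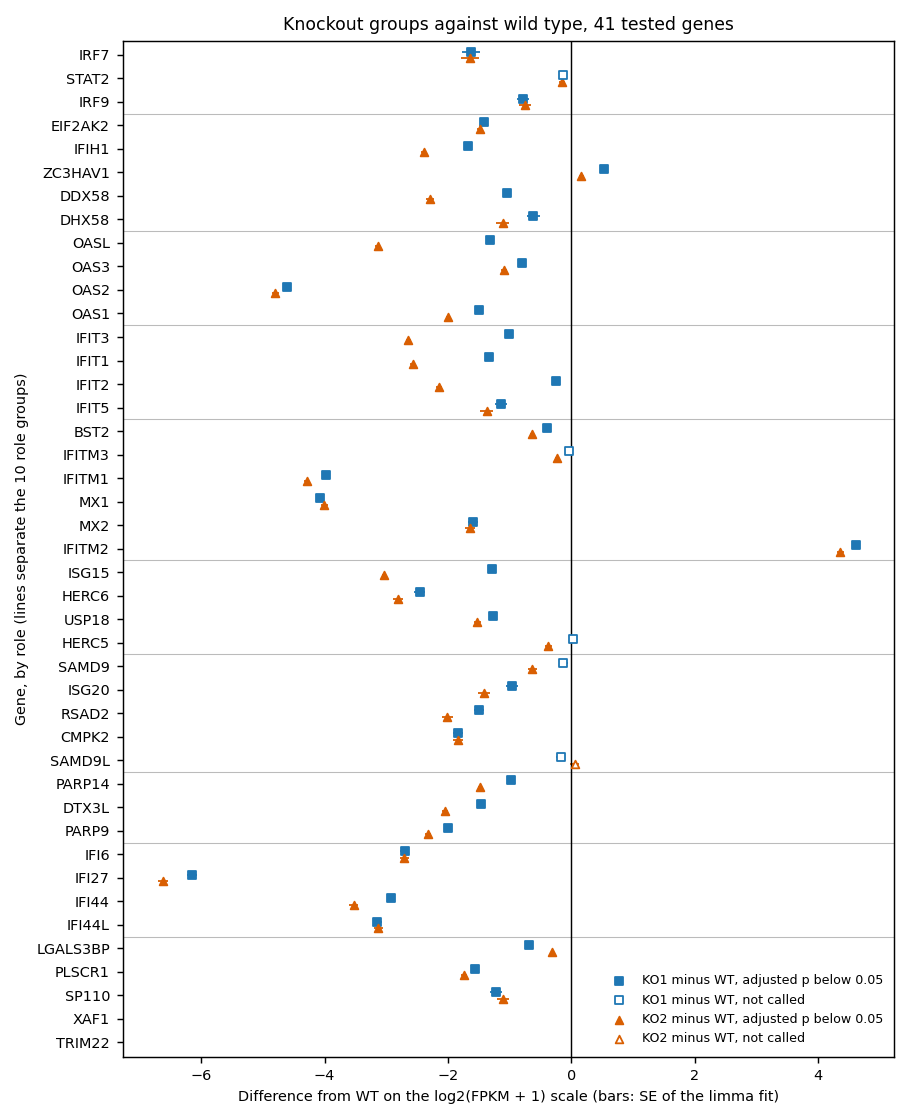
Difference from WT on the log2(FPKM + 1) scale for the 41 tested genes in KO1 and KO2, with bars of 1 SE and rows by role; XAF1 and TRIM22 did not pass the filter. Nearly all points lie left of 0, IFI27 farthest at -6.15 and -6.62, and IFITM2 stands alone at the right at 4.62 and 4.36.

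**Figure D3:**
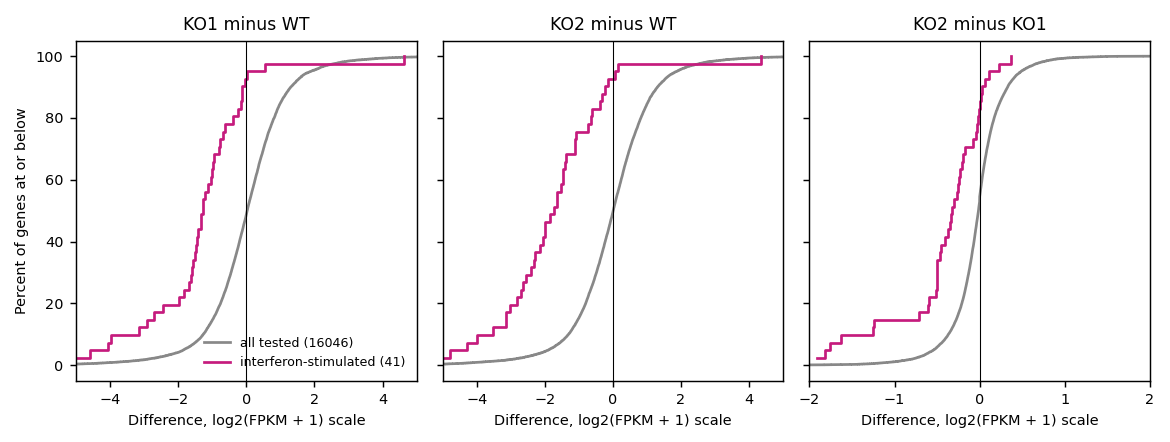
Cumulative share of genes by log2 difference for the tested members and for all tested genes, in the 3 contrasts, with the axis limited to 5 log2 either side of 0 (2 for KO2 minus KO1). The members' curve lies left of that of all genes over most of its length in each contrast, with medians of -1.28, -1.74 and -0.32.

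The 3 transcription factors of the response parted. STAT2, a part of ISGF3, was at 8.53 and 8.82 FPKM in WT, 8.04 and 7.66 in KO1, and 7.42 and 7.96 in KO2. WT was highest without overlap, but the gap was small: -0.13 ± 0.05 log2 in KO1 (adjusted p = 0.0605) and -0.16 ± 0.05 in KO2 (adjusted p = 0.0332), and the latter was not called when any 1 library other than KO2 replicate 2 was left out (adjusted p = 0.0503 to 0.137). Scaling by library size only left nearly none of the KO2 difference (-0.0099, adjusted p = 0.86). The call was also lost with quantile scaling (-0.097, adjusted p = 0.132), with no filter on low values (adjusted p = 0.0538), with the replicate block (adjusted p = 0.0556) and against a fold of 1.5. IRF7, the factor that amplifies interferon production and is itself induced, was at 10.4 and 10.05 FPKM in WT, 2.92 and 2.38 in KO1, and 3.13 and 2.13 in KO2. It was 3.87-fold lower in KO1 and 3.90-fold lower in KO2 (adjusted p = 0.000269 and 0.000252), and the knockout groups overlapped each other. IRF9, the DNA-binding part of ISGF3, averaged 1.34 ± 0.165 FPKM (SD, n = 2) for WT, 0.360 ± 0.0339 for KO1 and 0.392 ± 0.0728 for KO2. Its exons overlap those of AL136295.5 on the same strand over 48.4% of their length, so its level is uncertain.

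Among the 5 RNA sensors and RNA-binding effectors, 4 fell in both groups and 1 rose. DDX58 (RIG-I, chromosome 9, 32455705 to 32526324), which senses short double-stranded RNA with a free end, was at 10.4 and 9.96 FPKM in WT, 4.60 and 4.22 in KO1, and 1.38 and 1.18 in KO2. All 3 groups were separated, in steps of 2.30-fold from WT to KO1 and 3.45-fold from KO1 to KO2. IFIH1 (MDA5), the sensor of long double-stranded RNA, followed the same order at 14.4 ± 0.198, 3.80 ± 0.0326 and 1.92 ± 0.0425 FPKM. DHX58 (LGP2), which modulates both sensors, was at 2.27, 1.14 and 0.516 FPKM on average. EIF2AK2 (PKR), the kinase that stops translation when it binds double-stranded RNA, was at 25.7 and 24.4 FPKM in WT, 8.72 and 8.89 in KO1, and 8.17 and 8.45 in KO2. It fell by about the same amount in both groups, -1.41 ± 0.04 and -1.48 ± 0.04 log2, and KO2 minus KO1 was not called (-0.07 ± 0.04, adjusted p = 0.237).

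ZC3HAV1 (ZAP, chromosome 7, 139043520 to 139109719), which binds CpG-rich RNA and recruits its decay, went the other way. Its values were 12.2 and 13.1 FPKM in WT, 19.1 and 18.4 in KO1, and 14.3 and 14.2 in KO2, with no overlap between groups. It rose by 0.53 ± 0.04 log2 in KO1 (adjusted p = 0.000139) and by 0.16 ± 0.04 in KO2 (adjusted p = 0.0163). The KO2 call was lost without WT replicate 1, KO2 replicate 1 or KO2 replicate 2 (adjusted p = 0.0644, 0.0621 and 0.0573).

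The 4 OAS genes, whose enzymes make the oligoadenylate messenger that activates RNase L (OASL is the inactive relative that binds RIG-I), were lower in both groups, 4 of 4. OASL (chromosome 12, 121019111 to 121039242) was at 42.2 and 41.3 FPKM in WT, 16.4 and 15.8 in KO1, and 3.76 and 3.94 in KO2. OAS3 was at 31.0 and 33.1 in WT, 18.7 and 17.3 in KO1, and 14.2 and 14.6 in KO2. Both genes had separated groups, but the KO2 level was 9.21% of WT for OASL and 45.0% for OAS3. OAS1 stood between, at 25.6 ± 0.211, 8.41 ± 0.169 and 5.66 ± 0.202 FPKM. OAS2, the next gene beyond OAS3 on chromosome 12, was nearly absent from the knockout libraries, with 6889 reads in WT, 50 in KO1 and 6 in KO2. Thus adjacent genes of 1 family kept shares of WT from 0.0895% to 45.0% in KO2.

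The IFIT genes, whose proteins bind viral RNA ends and block their translation, sit side by side on chromosome 10 between 89283694 and 89421001. All 4 were called lower in both groups. IFIT3 was at 24.8 and 24.0 FPKM in WT, 12.0 and 11.2 in KO1, and 2.995 and 3.16 in KO2. IFIT1 was at 18.1 and 18.5 in WT, 6.83 and 6.54 in KO1, and 2.31 and 2.19 in KO2. IFIT2 was at 14.8 and 13.8 in WT, 11.9 and 11.9 in KO1, and 2.41 and 2.48 in KO2. All 3 had separated groups, and the KO2 level was the lowest each time. For IFIT2 most of the fall was in KO2 alone: -0.24 ± 0.04 log2 in KO1 (adjusted p = 0.00461, lost when only library size was scaled, -0.11, adjusted p = 0.074) against -2.15 ± 0.04 in KO2. IFIT5 was lower in both groups to a like extent, at 12.7 ± 1.51, 5.21 ± 0.210 and 4.29 ± 0.497 FPKM, and KO2 minus KO1 was not called (-0.23 ± 0.10, adjusted p = 0.162).

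The 6 membrane and capsid barriers had the widest range of directions. BST2 (tetherin, chromosome 19, 17402939 to 17405648), which holds budding virus at the cell surface, was the highest member in every group. It was at 383 and 381 FPKM in WT, 291 and 289 in KO1, and 254 and 237 in KO2, a modest, separated fall of -0.40 ± 0.04 and -0.64 ± 0.04 log2 (adjusted p = 0.000292 and 4.65e-05). MX1 and MX2, dynamin-like GTPases that trap viral capsids, fell to traces: MX1 had 6226 reads in WT against 53 in KO1 and 62 in KO2, and its FPKM level was 135-fold and 96.2-fold lower. MX2 had 1117, 25 and 4 reads. Their other tested neighbours within 1 Mb on chromosome 21, 8 protein-coding genes, had a median of 1.24 log2 above WT in KO1 and 0.91 in KO2. The 4 of them within 500000 bases had medians of 0.04 and 0.08, with 2 higher and 2 lower.

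The IFITM genes, small membrane proteins that stop virus fusion, lie together on chromosome 11. IFITM1 was at 80.5 and 76.4 FPKM in WT, 4.13 and 3.99 in KO1, and 3.12 and 2.99 in KO2. IFITM2 was at 1.44 and 1.38 in WT, 58.7 and 57.5 in KO1, and 50.9 and 46.3 in KO2. IFITM3 was at 142 and 147 in WT, 141 and 140 in KO1, and 121 and 123 in KO2. So the 2 neighbours IFITM1 and IFITM2 exchanged places, at 19.3-fold and 25.7-fold lower for IFITM1 and 4.62 ± 0.05 and 4.36 ± 0.05 log2 higher for IFITM2, while IFITM3 was -0.03 ± 0.03 (adjusted p = 0.283) and -0.24 ± 0.03 log2 (adjusted p = 0.000546). The sign for IFITM3 depended on the scaling: it was 0.20 in KO1 and 0.04 in KO2 after quantile normalization, and 0.10 in KO1 with library size only. The GENCODE 29 model of IFITM2 (307631 to 315272) runs across that of IFITM1 (313506 to 315272), the 2 share 351 exon bases, and the 3 coding sequences are near copies, so how reads were split among them is uncertain. Their part in the exchange was not tested.

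ISG15 is the ubiquitin-like protein that is attached to other proteins during the response. It was at 316 and 331 FPKM in WT, 135 and 130 in KO1, and 39.2 and 37.9 in KO2. No values overlapped, at 2.44-fold lower in KO1 and 8.38-fold lower in KO2 (-1.28 ± 0.04 and -3.03 ± 0.04 log2, adjusted p = 4.08e-06 and 3.96e-07). USP18, which removes ISG15 and also restrains the receptor, was lower at 11.8 ± 0.364, 4.32 ± 0.296 and 3.43 ± 0.0597 FPKM. HERC5, the ligase that attaches ISG15, was at 8.94 and 8.22 FPKM in WT, 8.96 and 8.59 in KO1, and 6.14 and 6.62 in KO2. Its WT and KO1 values overlapped (0.03 ± 0.06 log2, adjusted p = 0.662) and KO2 lay below both (-0.38 ± 0.06, adjusted p = 0.00222). HERC6, its neighbour on chromosome 4, was 7.73-fold lower in KO1 and 11.3-fold lower in KO2. The ligase and its substrate thus did not keep step: HERC5 kept 74.4% of WT in KO2 and ISG15 11.9%.

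The 5 genes that act on nucleotides, RNA or translation ranged from 0 reads to no call. CMPK2, a mitochondrial nucleotide kinase, had 250 and 195 reads in WT and 0 in each of the 4 knockout libraries, so it was at least 85.2-fold lower in KO1 and 70.5-fold lower in KO2 against a floor of 3 reads per library. RSAD2 (viperin), which makes a chain-terminating nucleotide and lies head to head with CMPK2 on chromosome 2, had 593 reads in WT, 98 in KO1 and 1 in KO2. The exons of both genes overlap by 14 bases. ISG20, an RNA exonuclease, was at 3.71 ± 0.115, 1.43 ± 0.251 and 0.770 ± 0.0962 FPKM. SAMD9, which restrains poxvirus translation, was at 12.3 and 10.6 FPKM in WT, 10.2 and 10.5 in KO1, and 7.03 and 7.06 in KO2, with a called fall in KO2 alone (-0.63 ± 0.07, adjusted p = 0.000619, against -0.13 ± 0.07, adjusted p = 0.149, in KO1). Its neighbour SAMD9L was at 2.32 and 2.19 in WT, 1.84 and 1.94 in KO1, and 2.21 and 2.56 in KO2, and was the 1 tested member not called in either group. Its values in KO2 overlapped those of WT.

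PARP9, PARP14 and DTX3L, ADP-ribosyl transferases and the ligase that pairs with PARP9, fell together. PARP14 was at 24.1 and 23.6 FPKM in WT, 11.5 and 11.7 in KO1, and 7.82 and 8.02 in KO2. DTX3L was at 23.8 and 22.8 in WT, 8.23 and 7.46 in KO1, and 4.92 and 4.82 in KO2. PARP9, which lies head to head with DTX3L on the other strand and shares the ISRE word shown above, was 4.78-fold and 6.48-fold lower. All 3 genes had separated groups in the order WT, KO1, KO2. The other tested genes within 1 Mb of DTX3L, 13 in number, had medians of 0.27 and 0.04 log2.

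The 4 IFI genes were lower in both groups, 4 of 4. IFI27, a mitochondrial membrane protein often used to score interferon exposure, was at 108 and 111 FPKM in WT, 0.589 and 0.530 in KO1, and 0.221 and 0.0390 in KO2. That was 18156 reads in WT against 107 and 21, or 196-fold and 843-fold lower. IFI44L, a cytoplasmic protein of unsettled function, had 3224 reads in WT, 0 in KO1 (at least 618-fold lower) and 4 in KO2. IFI44, which lies beside it on chromosome 1, still had 8.11 ± 0.0432 FPKM in KO1 and 5.01 ± 0.574 in KO2, from 68.3 ± 0.467 in WT. IFI6, a relative of IFI27 that protects cells from apoptosis, was at 275 and 303 in WT, 41.6 and 45.3 in KO1, and 41.05 and 45.6 in KO2. It fell by a like amount in both groups, and KO2 minus KO1 was 0.00 ± 0.08 log2 (adjusted p = 0.991).

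Of the 5 remaining genes, LGALS3BP, a secreted glycoprotein, was at 257 and 264 FPKM in WT, 162 and 161 in KO1, and 211 and 209 in KO2. It was the lowest in KO1, unlike most members. PLSCR1, a scramblase-family protein that limits virus entry, was at 28.5 and 26.1 FPKM in WT, 8.31 and 8.81 in KO1, and 7.45 and 7.45 in KO2. SP110, a nuclear body protein, was at 3.16 ± 0.382, 0.771 ± 0.111 and 0.917 ± 0.0676 FPKM. XAF1, a pro-apoptotic partner of XIAP, had 274 reads in WT and 0 in each knockout library, so it was at least 53.1-fold lower in KO1 and 44.0-fold lower in KO2. TRIM22, an antiviral ubiquitin ligase, had 57, 27 and 26 reads. Neither of the last pair passed the filter. In the limma fit with no filter XAF1 was lower in both groups (-1.03 log2, adjusted p = 0.000456 and 0.000447), and TRIM22 was not called (-0.17 and -0.15, adjusted p = 0.0692 and 0.0944), although its WT libraries, at 36 and 21 reads, lay above the 10 to 16 reads of the knockout libraries.

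KO1 and KO2 also differed from each other, mostly in 1 direction. By the same limma fit 26 of the 41 tested members were lower in KO2 than in KO1, 1 was higher and 14 were not called. The background was 15% of all genes lower and 11.2% higher. The members' median was -0.32 log2 against -0.01, and KO1 and KO2 values did not overlap for 36 members and 64.8% of all genes. A fall of more than 1 log2 was seen for 6 members (14.6%) and 0.86% of all genes. These 6 were IFIT2 (-1.91 ± 0.04), OASL (-1.82 ± 0.04), ISG15 (-1.76 ± 0.04), IFIT3 (-1.63 ± 0.05), DDX58 (-1.25 ± 0.07) and IFIT1 (-1.24 ± 0.04), with adjusted p between 0.000161 and 0.000804. LGALS3BP was the 1 member called higher (0.37 ± 0.02, adjusted p = 0.00118). Of its 19 tested protein-coding neighbours within 1 Mb, 17 were called higher too and 1 lower, with a median of 0.31 log2. MX1 (0.07 ± 0.06) and CMPK2, at trace or 0 in KO1, were among those not called. RSAD2, with 98 reads in KO1 and 1 in KO2, was 78.9-fold lower in KO2 by FPKM, though -0.52 ± 0.08 in the fit (adjusted p = 0.012). The 6 stayed called under each alternative run, while the count of 26 fell to 17 without either KO1 replicate and to 6 when a fold of 1.5 was required. Over genes at 1 FPKM or more in all 4 libraries, 22 of 30 members were lower, against 17.1% of all such genes.

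**Figure D4:**
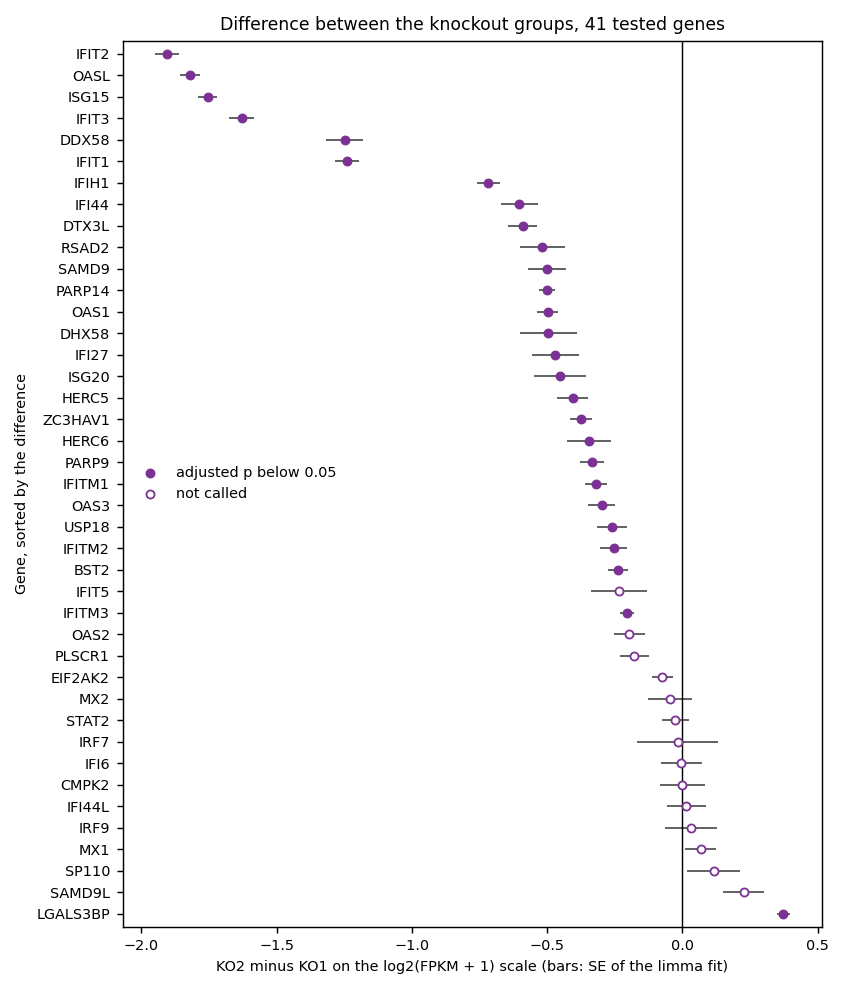
KO2 minus KO1 on the log2(FPKM + 1) scale for the 41 tested genes, ordered by value, with bars of 1 SE and called genes filled. IFIT2, OASL, ISG15, IFIT3, DDX58 and IFIT1 lie beyond -1, and LGALS3BP at 0.37 is the 1 called gene on the right.

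Residual level sorted the members in another way. In both knockout groups 7 were under 5% of WT (OAS2, MX1, MX2, CMPK2, IFI27, IFI44L and XAF1), and IFITM1 lay just outside at 5.18% and 3.89%. Another 9 kept 50% or more in both (STAT2, ZC3HAV1, IFITM2, IFITM3, BST2, HERC5, SAMD9, SAMD9L and LGALS3BP), and 27 lay between. Members at 0 or trace in KO1 and KO2 thus stood beside neighbours of the same cluster that kept more reads, as with OAS2 and OAS3, IFI44L and IFI44, and CMPK2 and RSAD2 in KO1.

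The genes around the members gave a local reference. For 37 members, 3 or more tested protein-coding genes outside the interferon lists lay within 1 Mb. The median of their neighbours' medians was 0.10 log2 in KO1, 0.04 in KO2 and 0.00 for KO2 minus KO1, against -1.23, -1.64 and -0.32 for the members themselves. The member was below its own neighbours for 35, 36 and 29 of the 37. Members of 1 cluster share neighbours, so these comparisons are not independent. Among the 37 were IRF9, OAS2, MX1, MX2, IFI27, IFI44L and SP110, which passed the filter only through WT. These had to be lower than WT, and the counts and medians were not taken without them. Around some members the neighbours were mostly lower too, with gaps of differing size. SP110 lay close to its 10 neighbours, at -1.23 against -0.93 in KO1 and -1.11 against -0.97 in KO2. DHX58 was at -0.62 against -0.50 for its 47 neighbours in KO1 and at -1.11 against -0.54 in KO2. For ISG15, 24 and 26 of 36 neighbours were called lower, with medians of -0.62 and -0.65 against -1.28 and -3.03 for the gene itself. For USP18 it was 9 and 8 of 9 neighbours (-0.60 and -0.70 against -1.27 and -1.53), and for EIF2AK2 9 of 12 in both groups (-0.44 and -0.55 against -1.41 and -1.48). ZC3HAV1 rose by less than its 9 neighbours, whose medians were 1.10 and 1.17. ISG20, at -0.96 and -1.41, had neighbour medians of -0.26 and -0.58 within 1 Mb but -1.21 and -1.29 within 500000 bases. IFIH1, RSAD2, CMPK2 and PLSCR1 had fewer than 3 neighbours and were not among the 37. The 1 neighbour of RSAD2 and CMPK2 was at -2.31 in both groups, below both genes. For the 2 neighbours each of IFIH1 and PLSCR1, medians were -1.46 and -1.37, and 0.67 and 0.82.

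**Figure D5:**
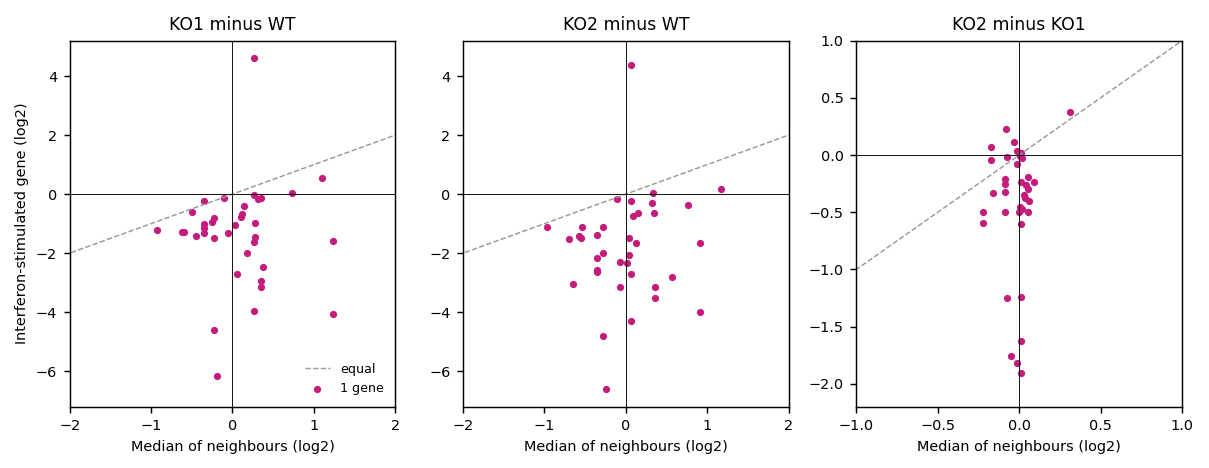
Each member's log2 difference (vertical) against the median difference of its protein-coding neighbours within 1 Mb (horizontal), for 37 members in the 3 contrasts, with the line of equality. Most points lie below the line (35, 36 and 29 of 37), with IFITM2 above it in both contrasts with WT.

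The upstream parts of the pathway were read from lists of other genes. Of 21 interferon genes, 0 passed the low-value filter. IFNL1, a type III interferon, had 23 reads in WT, 21 in KO1 and 3 in KO2. IFNE, an epithelial type I interferon, had 45, 26 and 11, and IFNB1 3, 2 and 0. In the limma fit with no filter, IFNL1 was lower in KO2 (-0.60 log2, adjusted p = 0.0125) and not called in KO1 (-0.11, adjusted p = 0.498). IFNE was lower in KO2 (-0.56, adjusted p = 0.0144) and not called in KO1 (-0.36, adjusted p = 0.0625), and IFNB1 was not called in either group. The same fit called IFNA1 lower in both groups (-0.26, adjusted p = 0.0275 and 0.0270) and IFNL3 higher in KO1 (0.32, adjusted p = 0.0216). Both of these have near copies in the genome, so their reads are uncertain. The summed level of the 21 genes was 1.64 to 2.04 FPKM in WT, 1.41 to 1.54 in KO1 and 0.344 to 0.407 in KO2.

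Of 9 genes for receptor chains and their kinases, 7 were tested, with 3 lower and 2 higher in KO1 and 4 lower and 2 higher in KO2. Over all tested genes 38.6% were lower and 39.3% higher in KO1, and 39.8% and 39.1% in KO2. The shares of these genes against WT thus lie near the background. Between the knockout groups, 4 of the 7 were lower in KO2 than in KO1 and 0 higher, against 15% and 11.2% of all tested genes. IFNAR1, a chain of the type I receptor, was at 13.3 and 12.3 FPKM in WT and 8.12 to 8.58 in the knockout libraries (-0.55 ± 0.05 and -0.58 ± 0.05). TYK2 was lower by a like amount (-0.58 in both) and JAK1 higher (0.54 and 0.29), as was JAK2 (1.04 and 0.64), which serves the gamma receptor. IFNGR1, a chain of that receptor, was at 22.8 and 20.6 FPKM in WT, 17.1 and 16.3 in KO1, and 10.5 and 10.9 in KO2. IFNLR1, the chain particular to type III interferons, was not called in either group (-0.11 and -0.29). IFNAR2 and IL10RB were at 0.166 to 0.582 FPKM, but the gene AP000295.1 covers much of their exons, 83.2% with an antisense gene for IFNAR2 and 38.1% for IL10RB, so their levels are uncertain.

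Of 12 genes that sense nucleic acids or induce interferon, 10 were tested. In KO1, 4 were higher and 5 lower, and in KO2, 3 were higher and 6 lower. Over all genes it was the same 38.6% lower and 39.3% higher in KO1 and 39.8% and 39.1% in KO2. Between the knockout groups, 6 of the 10 were lower in KO2 than in KO1 and 1 higher, against 15% and 11.2% of all tested genes. IRF3, the factor that turns on interferon genes, was at 30.3 and 31.0 FPKM in WT, 15.4 and 14.8 in KO1, and 12.8 and 12.6 in KO2. TLR3, an endosomal RNA sensor, fell by 1.20 and 1.07 log2, while its adaptor TICAM1 rose by 1.23 and 1.08. STING1, the adaptor of cytosolic DNA sensing, was -0.05 ± 0.05 in KO1 (adjusted p = 0.407) and -0.85 ± 0.05 in KO2, and its partner CGAS was lower in both (-0.79 and -1.01). MAVS, the adaptor of DDX58 and IFIH1, fell by 0.29 in both groups (adjusted p = 0.0012 and 0.00116), and TBK1, the kinase of IRF3, was higher (0.55 and 0.31).

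A second list held 30 interferon-stimulated genes outside the 43, of which 28 were tested. In each group 20 were lower, 5 higher and 3 not called. The shares over all tested genes were 38.6% lower and 39.3% higher in KO1, and 39.8% and 39.1% in KO2. The medians of this second list were -0.66 and -0.77 log2, and those of the tested members of the first list were -1.28 and -1.74. UBE2L6, the conjugating enzyme of ISG15, was at 46.1 and 46.7 FPKM in WT and 2.08 to 2.97 in the knockout libraries (-3.80 ± 0.13 and -3.76 ± 0.13). LY6E, a surface protein that acts on virus entry, was at 196 and 198 in WT, 65.99 and 69.8 in KO1, and 77.2 and 76.5 in KO2. ADAR, the RNA-editing enzyme, was lower in KO1 (-0.44) and not called in KO2 (0.07, adjusted p = 0.0914). SLFN11 and GMPR had 0 reads in the 4 knockout libraries, from 445 and 236 in WT. PARP12 rose in both groups (0.95 and 0.66), as did SHISA5 (0.61 and 0.62). Of the 28, 5 were lower in KO2 than in KO1 and 3 higher, which lies near the 15% lower and 11.2% higher of all tested genes.

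Of 18 genes known mainly as targets of interferon gamma, 11 were tested. In KO1, 6 were higher and 4 lower, against 39.3% and 38.6% of all tested genes. In KO2, 10 were lower and 1 was not called, against 39.8% lower and 39.1% higher over all tested genes. The KO2 minus KO1 contrast called 9 of the 11 lower, against 15% of all tested genes. GBP4, a guanylate-binding protein, had 1146 reads in WT, 11 in KO1 and 1 in KO2, and GBP1 fell in both groups (-1.53 and -1.74). The immunoproteasome subunits PSMB8 and PSMB9 and the apolipoprotein APOL1 were above WT in KO1 and below it in KO2.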

How the data were processed

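Total RNA of 6 libraries labelled NCI-N87 (2 each of WT, KO1 and KO2) was measured by sequencing. The authors deposited FPKM values per Ensembl gene, and HISAT2 2.0.5, featureCounts 1.5.0-p3 and hg38 are named in the submitters' processing notes. What each did, the strand setting and the annotation used are not stated there. All 58735 IDs matched GENCODE 29, which supplied names, exons and GRCh38 coordinates. Each FPKM value times its exon length was a whole multiple of 1 step per library for 100% of values (tolerance 0.1 step), so reads were recovered (17599759 to 22852340 per library). The FPKM denominator was 0.936 to 1.05 times that total, a scale factor that no source explains. At this depth 1 read in 1 kb equals 0.0429 to 0.0544 FPKM. A fold against 0 reads used a floor of 3 reads per library, which covers counting error only.

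Genes at 1 FPKM or more in 2 libraries (16046) were fitted on the log2(FPKM + 1) scale by limma 3.58.1 (R 4.3.3), with 1 mean per group, a trended variance, 6 libraries and no covariate. Calls are Benjamini-Hochberg adjusted p below 0.05 over all genes. Differences carry SE, levels SD with n = 2, and log2 differences understate the change of low genes. The design asked for a count test on deposited counts, and the files held FPKM, so limma was used. The script was tested on simulated data.

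The members and lists were chosen with earlier results of these data known. Full values were given for the 2 highest members of each role group, members higher in a knockout group or not called in either, the 5 with the largest called difference between KO1 and KO2, and those with 0 reads in a group. Genes of other lists were taken among the 6 highest or the 4 with the smallest adjusted p, and others were chosen after their values were seen: JAK2, IFNLR1, IFNAR2, IL10RB, TLR3, STING1, ZBP1, SLFN11, GMPR, PARP12, CXCL10, CXCL11, and the interferon and marker genes named. Promoter windows are RefSeq, GRCh38.p14. Alternatives changed the pseudocount (0.1), filter, scaling, test, libraries and threshold.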

Additional observations from a re-analysis of the deposited data

Results flagged for a closer look

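None of the 43 genes was called in opposite directions in KO1 and KO2 against WT, but 5 interferon gamma targets were, each with a called difference between KO2 and KO1. APOL1, an apolipoprotein, was at 12.5 and 13.3 FPKM in WT, 17.1 and 17.4 in KO1, and 3.84 and 3.18 in KO2, and KO2 minus KO1 was -2.02 log2. PSMB9, an immunoproteasome subunit, was at 12.9 and 14.2, 16.1 and 17.2, and 7.99 and 7.61 FPKM, a difference of -1.003. PSMB8, its neighbour and fellow subunit, was at 26.0 and 26.0, 30.3 and 30.5, and 19.7 and 17.7, a difference of -0.68. APOL2 was at 7.71 and 8.59, 11.9 and 11.3, and 7.06 and 7.05, a difference of -0.65. WARS1, a tryptophan tRNA ligase, was at 15.1 and 15.5, 17.0 and 16.3, and 13.4 and 13.1, a difference of -0.31. For these 5 genes the KO1 libraries were above both WT libraries and the KO2 libraries below both. Exons of PSMB8 and PSMB9 overlap each other and PSMB8-AS1.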

How the results depend on the processing

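The count of members lower in KO1 than in WT was 34, and 25 to 37 over the alternatives. In KO2 it was 38, and 28 to 38. Without WT replicate 1 or 2 these counts were 25 or 26 and 28, since members at 1 FPKM in WT only then fail the filter. Of the 34, 22 were called under all 14 other settings fitted, and of the 38, 23. A further 8 in each (OAS2, MX1, MX2, RSAD2, CMPK2, IFI27, IFI44L and SP110) were called wherever they were tested. These 8 passed the filter only through WT and so had to be lower. They were not tested when a WT library was left out, so their calls add no support. For members higher than WT (2 in each group) requiring a fold of 1.5 gave 1 in each, and leaving out 1 library gave 2 in KO1 and 1 to 2 in KO2, where ZC3HAV1 was lost. Quantile scaling and library size only each gave 3 higher in KO1. For KO2 minus KO1, 26 members were lower, 17 to 22 when 1 library was left out (17 without KO1 replicate 1 or 2), 21 with no filter or only the groups compared, and 6 against a fold of 1.5; 6 were called under all 14. The 1 member higher became 2 with voom on recovered reads and 0 with limma's test against a fold of 1.5 (0 also at an unadjusted p under 0.05). The cause of these changes was not tested. IFITM3 changed sign: 0.20 in KO1 (adjusted p = 0.00121) and 0.0449 in KO2 (adjusted p = 0.179) after quantile scaling, and 0.10 in KO1 (adjusted p = 0.0114) with library size only. Scaling by library size only moved the median of all genes to 0.13 in KO1 and 0.14 in KO2 from 0.02 and 0.01. Neighbours in the smaller window left 32, 34 and 29 of 35 members below them, and a looser ISRE word, GAAANNGAA, was in 67.4% of members' windows and 8.11% of all. On the gene's strand only, the ISRE word of the main search was in 41.3% and 1.69%.

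Same-numbered libraries did not deviate together (correlations over 16046 genes of 0.02 for WT and KO1, -0.004 for WT and KO2 and -0.04 for KO1 and KO2), so the numbers were not taken as pairs. With the replicate block the counts lower were 34, 37 and 23 and those higher 2, 2 and 1. A quasi-likelihood count test on recovered reads was not run. TRIM22, XAF1 and the interferon genes were left out by the filter on low values, and their values in the fit without it rest on few reads.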

Other observations

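Several genes of the lists above had few reads. CXCL10, a T-cell attracting chemokine, had 6 reads in WT, 83 in KO1 and 9 in KO2, and CXCL11, its relative, had 16, 66 and 4. IFNL3, a type III interferon, had 0, 9 and 0 reads, and IFNL2 had 1, 6 and 1, so the highest counts of these 4 genes were in KO1. ZBP1, a sensor of Z-form nucleic acid that interferon induces, had 20 reads in WT and 0 in both knockout groups. CXCL10, one of the gamma targets counted above, was the 1 of them that passed the filter, at 1.17 ± 0.14 log2 in KO1 (limma adjusted p = 0.000716) and 0.09 ± 0.14 in KO2 (adjusted p = 0.555), and KO2 minus KO1 was -1.07 (adjusted p = 0.00585). With no filter CXCL11 was higher in KO1 (0.54, adjusted p = 0.00449) and lower in KO2 than in KO1 (-0.73, adjusted p = 0.0106), and ZBP1 was lower in both groups (-0.13, adjusted p = 0.00594 and 0.00580).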
